A study of Mus musculus with 18 samples.

Results

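The differentiation response of C2C12 cells that overexpress spliced MUNC was compared here with that of control cells, gene by gene. The 12 libraries used were those of control and MUNC spliced cells in growth medium (GM) and after 3 days in differentiation medium (DM3), with 3 replicates a group, out of 18 libraries in the series. The other 6 came from cells that overexpress genomic, unspliced MUNC. They entered the fit for its estimate of spread and served as a second comparison. The quantity throughout is the interaction, the DM3 minus GM change of the spliced cells minus the DM3 minus GM change of the control cells. It is a difference on the log2(FPM + 1) scale, where FPM is reads of a gene scaled for library size and not for gene length. Of 35275 genes, 13869 reached 0.5 FPM in at least 3 of the 18 libraries and were tested. A gene was called where limma gave a Benjamini-Hochberg adjusted p under 0.05.

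C2C12 is a mouse myoblast line, and the labels give this stock as C2C12 PAX7 NEG in every group. Control cells are labelled wild type and the others MUNC spliced overexpressing. The labels do not say which vector was used, whether the control carried one, or whether a line was 1 clone. GM held 20% fetal bovine serum and cells were taken at about 80% confluency, while differentiation medium held 2% horse serum. The replicates are called biological, with no statement of separate cultures, so the p-values measure the spread between these samples only. No gene row was matched to MUNC, and the overexpression was therefore not checked. Depth was 38416702 to 68235989 reads in the 12 libraries, and 3 reads, the limit that a count of 0 allows, came to 0.0461 to 0.0757 FPM.

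When serum is withdrawn, myoblasts leave the cell cycle, switch on the transcription factor myogenin under MyoD, fuse, and build sarcomeres from actin, myosin, troponin and giant scaffold proteins. MUNC, a noncoding RNA from the distal regulatory region of Myod1, is known to promote myogenesis. Cell growth is wound down at the same time, since Myc, ribosome production, amino acid synthesis and DNA replication all serve dividing cells. The integrated stress response, in which the factor ATF4 induces amino acid synthesis and transport genes, is a separate input to the same genes.

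The control DM3 cells, which their labels call myotubes, had few or no reads of several myotube markers. Of 9 myotube markers in the table, Myh8 had no read in the 3 control DM3 libraries, and Myh3, Ckm and Mymk stayed below 0.5 FPM in each of them. Of the 7 markers tested, 2 rose and 1 fell in control by the test, and Ttn was among those that rose. The mean log2(FPM + 1) of the tested markers was 0.77 to 0.905 in control GM and 0.952 to 1.41 in control DM3. In spliced cells it was 1.52 to 2.20 in GM and 3.71 to 6.10 in DM3. The summed level of the 9 markers was 12.7 to 32.1 FPM in control GM, 10.1 to 19 FPM in control DM3, 19.3 to 41.9 FPM in spliced GM and 123 to 762 FPM in spliced DM3. Myoblast markers all had some read in each of the 4 groups, a looser rule by which Myh8 alone of the myotube markers was absent from control DM3. The myoblast marker Myod1 had 5, 0 and 0 reads in control GM and 4, 0 and 12 reads in control DM3. On the first principal component of the log2 values, spliced DM3 replicate 1 lay at 32.5 against 59.5 and 62.8 for replicates 2 and 3, and spliced GM replicate 2 lay at -3.63 against -28.8 and -35.3. Calls of genes described here that were lost when both were left out are given with that value. In bulk RNA, a change in the number of cells of a type and a change in the RNA of each cell cannot be told apart.

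The interaction was called for 1993 genes, 14.4% of those tested, of which 1030 (7.43%) were higher and 963 (6.94%) lower in the spliced response. The split depended on the scaling, with 802 higher and 1134 lower after rescaling all libraries to equal sums and 1042 higher and 635 lower in edgeR with TMM normalization. Control cells changed 8078 genes (58.2%) on differentiation and spliced cells 4933 (35.6%). Sorting the 1993 genes by these calls, 1087 responses (7.84% of tested genes) were lost, that is called in control and not in spliced cells. A further 489 (3.53%) were reduced, called in both with the same sign and smaller in spliced cells. Another 290 (2.09%) were gained, called in spliced cells only, 77 (0.555%) turned to the opposite sign, 31 (0.224%) were enlarged, and for 19 (0.137%) neither response was called. Lost and reduced responses together made up 79.1%. The classes share the control and spliced libraries with the interaction, so they describe it and do not test it. A lost response is one that missed the threshold in the spliced cells, and in 630 of the 1087 the spliced change still had the sign of the control change.

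Lost rises were mainly differences in DM3. Of the 604 control rises that were lost, 447 genes (74.0%) were lower in spliced than in control DM3, and 183 (30.3%) were already higher in spliced GM. Lost falls came more evenly from both media, since 307 of 483 (63.6%) were higher in spliced DM3 and 205 (42.4%) were already lower in spliced GM. Gained rises were mostly a DM3 difference, with 157 of 178 genes (88.2%) higher in spliced than in control DM3. Of all tested genes, 43.3% differed between the lines in DM3 (22.3% higher and 21% lower in spliced cells) and 35.5% in GM (18.2% higher and 17.3% lower). The lost and gained genes were sorted by responses in these same libraries, so the sorting itself raises such shares. The shares describe the sorted genes and do not test in which medium a difference arose. Without spliced DM3 replicate 1 and spliced GM replicate 2 together, 1030 interactions were called and lost and reduced responses made up 56.4% of them.

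**Figure D1:**
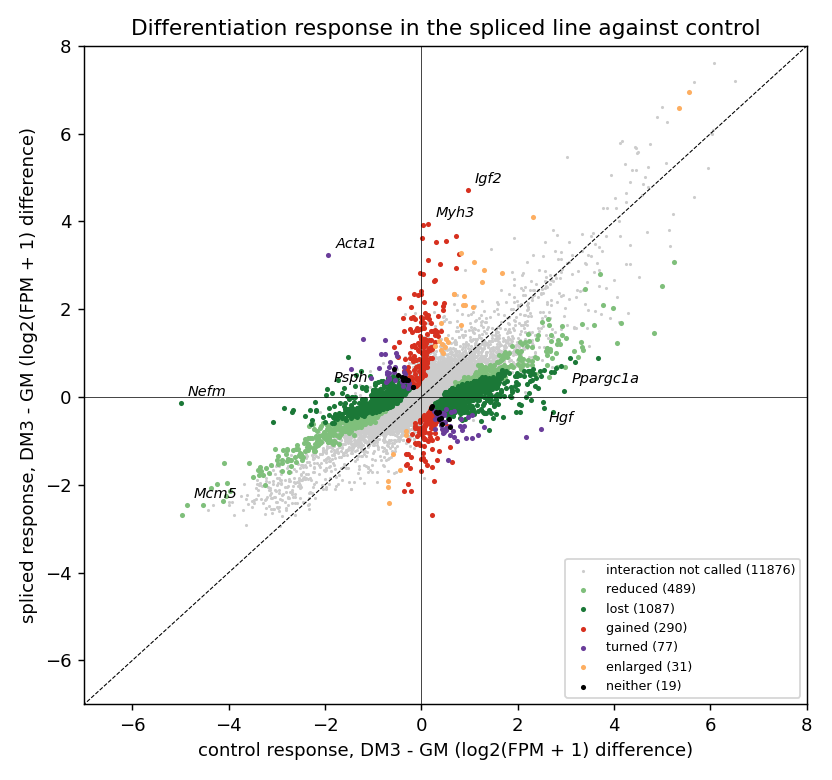
Each point is a tested gene, with the DM3 minus GM difference of log2(FPM + 1) in control cells on the x axis and in MUNC spliced cells on the y axis, coloured by class. The dashed line marks equal responses. The 1087 lost responses lie near the horizontal line of no spliced change, the 290 gained ones near the vertical line of no control change, and Acta1 and Hgf sit in the quadrants of opposite sign.

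Muscle structural genes were among the gained rises. The sarcomere list holds 80 genes, of which 51 were tested, and 11 of these had a higher and 1 a lower interaction (21.6% higher against 7.43% of all tested genes). Of the 12, 9 were gained rises, a class that by definition holds no gene called in control. In all, 33 of 51 sarcomere genes rose in spliced cells and 20 rose in control cells, against 17.2% and 29.6% of all tested genes. The median sarcomere gene had an interaction of 0.53, with a spliced response of 1.28 and a control response of 0.19. Without the 2 outlying libraries the counts were 10 higher and 2 lower, and edgeR called 6 higher and 2 lower. Without single libraries the sarcomere count of higher calls ran from 8 to 21 (without spliced DM3 replicate 2), and that of lower calls reached 4 without spliced DM3 replicate 1.

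Skeletal alpha-actin, encoded by Acta1 and the main actin of the adult sarcomere, turned from a fall to a rise. Its level was 19.7, 11.2 and 31.0 FPM in control GM and 5.68, 3.95 and 3.43 FPM in control DM3. In spliced cells it was 5.55, 4.82 and 20.5 FPM in GM and 250, 35.4 and 72.9 FPM in DM3. Every control DM3 library lay below every control GM library, and every spliced DM3 library above every spliced GM library. The interaction was 5.16 (SE 0.83, adjusted p = 0.00132), the largest of all named genes, and remained called without any single library. Actc1, the cardiac and embryonic actin, is nearly identical in sequence, so reads may have been split between the pair. It was at 0.0512 FPM or less in every control library, at 0.938 to 1.31 FPM in spliced GM, and at 35.7, 5.31 and 12.4 FPM in spliced DM3.

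The promoters of Acta1 and Mybph are shown because these genes had the largest interactions of the sarcomere list. Each line gives the 250 bases before the RefSeq start on GRCm38.p6, 5′ to 3′ on the gene's strand. Capitals mark E-boxes (CANNTG, the letters that MyoD and myogenin bind, a palindromic pattern that reads the same on both strands) and the CArG box of serum response factor. Acta1 lies on the minus strand at chr8:123894776-123895025 and Mybph on the plus strand at chr1:134193198-134193447.
Acta1: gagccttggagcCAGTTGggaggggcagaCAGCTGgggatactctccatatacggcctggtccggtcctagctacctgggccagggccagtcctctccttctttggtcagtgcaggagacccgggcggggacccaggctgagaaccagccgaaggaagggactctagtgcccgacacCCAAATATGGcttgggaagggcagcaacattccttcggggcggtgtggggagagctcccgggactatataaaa
Mybph: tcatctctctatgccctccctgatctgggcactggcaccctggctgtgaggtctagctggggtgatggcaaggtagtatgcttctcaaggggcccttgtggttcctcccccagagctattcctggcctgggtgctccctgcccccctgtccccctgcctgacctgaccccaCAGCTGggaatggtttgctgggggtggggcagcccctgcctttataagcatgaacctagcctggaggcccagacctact
Acta1 has E-boxes starting 238 and 221 bases before the start and a CArG box 73 bases before it. Mybph has 1 E-box, 79 bases before the start, and none of the CArG letters in this window. An E-box is common, found in 66.2% of the 32851 promoters of this length in the table. It is found in 8 of the 12 promoters (66.7%) of 11 sarcomere genes with a called interaction. A CArG box is found in 1.47% of all promoters and in 5 of the 48 promoters (10.4%) of 40 sarcomere genes. Of the 12 promoters of called sarcomere genes, 4 (33.3%) hold one. The motifs were chosen after the values had been seen, and a match describes the letters only.

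Mybph, a myosin-binding protein of the thick filament, had at most 3 reads in any control library. Its spliced GM libraries held 0.252, 0.532 and 0.866 FPM and its spliced DM3 libraries 45.1, 13.6 and 17.5 FPM. The interaction was 3.88 (SE 0.46, adjusted p = 0.00015). Embryonic myosin heavy chain, Myh3, was at 0.215 to 0.497 FPM in all 6 control libraries, at 1.44, 2.47 and 4.64 FPM in spliced GM and at 177, 24.2 and 37.9 FPM in spliced DM3. Its interaction of 3.80 (SE 0.68, adjusted p = 0.00284) was also called by edgeR (4.31, adjusted p = 0.0156), whereas that of Mybph was not (3.41, adjusted p = 0.583). Both rose in each of the 3 spliced DM3 libraries over each GM library, and in both replicate 1 was highest.

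Some thin-filament and light-chain genes also had higher interactions in limma. Tnnc1, the troponin that binds calcium in slow muscle, was at 5.47 to 8.26 FPM in all control libraries, 3.81 to 5.30 FPM in spliced GM and 55.3, 13.5 and 15.6 FPM in spliced DM3 (interaction 1.86, adjusted p = 0.0211). Myl4, an embryonic myosin light chain, gave an interaction of 2.27 (adjusted p = 0.000727), called by edgeR too (3.37, adjusted p = 0.00106). Myl1, a fast light chain, gave 2.97 (adjusted p = 0.00319) in limma and -0.96 in edgeR, with at most 0.217 FPM in any control library. These 3 and Actc1, with Ttn, Tnnt3, Neb, Lrp4 and Rapsn below, were chosen after their values had been seen.

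Not every large muscle gene differed. Ttn, which encodes the giant scaffold titin, was at 0.353 to 0.478 FPM in control GM and 1.79, 4.89 and 3.89 FPM in control DM3, and at 8.38 to 11.9 FPM in spliced GM and 139, 21.7 and 31.2 FPM in spliced DM3. It rose in both lines, and its interaction of 0.53 (SE 0.67, adjusted p = 0.642) was not called. Tnnt3 of fast troponin (0.89, adjusted p = 0.437) and Neb, nebulin (1.57, adjusted p = 0.085), were not called either. The lower sarcomere call was Ldb3, a Z-disc protein, with 30.2, 34.1 and 31.4 FPM in control GM and 60.1, 74.4 and 72.6 FPM in control DM3. In spliced cells it was at 48.0, 47.9 and 29.4 FPM in GM and 49.8, 26.6 and 24.0 FPM in DM3, so the control rise was lost (interaction -1.44, SE 0.34, adjusted p = 0.0125).

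**Figure D2:**
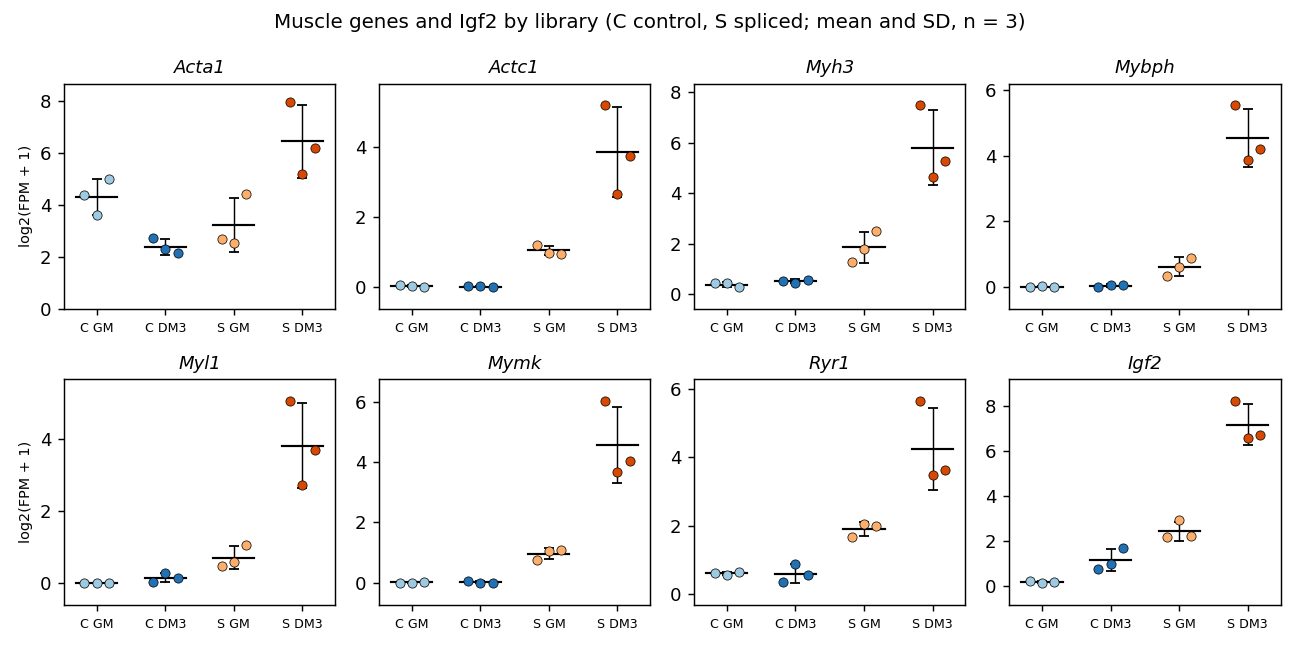
Log2(FPM + 1) of 8 genes in each library of control (C) and spliced (S) cells in GM and DM3, with points for replicates 1 to 3 from left to right, and the mean and SD of 3. Replicate 1 of spliced DM3 is the highest point in every panel, and the other 2 spliced DM3 libraries lie above all spliced GM libraries too.

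The factors above these genes moved less clearly. Of 30 myogenic regulators, 21 were tested, with 1 higher and 3 lower interactions (4.76% and 14.3%, against 7.43% and 6.94% of all tested genes). Myog, myogenin, was at 0.434 FPM or less in every control library, at 9.72, 12.6 and 5.48 FPM in spliced GM and at 226, 52.6 and 41.0 FPM in spliced DM3. Its spliced response was 3.02 and its limma interaction 2.64 (SE 0.64, adjusted p = 0.0135). On recovered reads edgeR gave 0.05 and DESeq2 -0.07, so the direction depended on the model. Myod1 stood at 0.221 FPM or less in control cells, 8.84 to 17.9 FPM in spliced GM and 53.3, 16.4 and 16.0 FPM in spliced DM3, and neither its interaction (0.88, adjusted p = 0.320) nor its spliced response (0.97, adjusted p = 0.075) was called. Of the cofactors, Vgll2 had no read in any control library, and fell in spliced cells from 14.1, 10.1 and 14.1 to 3.74, 1.93 and 4.61 FPM (interaction -1.67, limma adjusted p = 0.00117). The Vgll2 interaction thus sets the spliced fall against a control without reads, and neither edgeR nor DESeq2 called it. Eya1 rose less than in control (-0.96, adjusted p = 0.0097).

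Some fusion and calcium handling genes were gained rises, although the fusion list as a whole lay near the background, with 2 higher and 2 lower of 25 tested (8% each against 7.43% and 6.94%) and a median of -0.04. Mymk, the fusogen myomaker, was at 0.0384 FPM or less in control cells, at 0.681, 1.06 and 1.12 FPM in spliced GM and at 63.7, 11.8 and 15.3 FPM in spliced DM3 (interaction 3.61, SE 0.56, adjusted p = 0.000981). Its partner Mymx, myomixer, reached 12, 5.65 and 3.94 FPM in spliced DM3 (2.12, adjusted p = 0.00364). EdgeR called neither, with 4.08 and 2.10. Of the 2 lower calls, that of Jam2, an adhesion molecule, was -0.95. In the excitation-contraction coupling list 4 of 25 were higher and 1 lower (16% and 4%). Ryr1, the calcium release channel, was at 0.269 to 0.848 FPM in all control libraries and went from 2.17, 3.13 and 2.96 FPM to 48.9, 10.1 and 11.3 FPM in spliced cells (2.35, SE 0.55, adjusted p = 0.0117). Casq2, a calcium store protein, gave 1.91 (adjusted p = 0.0148), and Clcn1, the chloride channel, gave a lost rise (-0.99, adjusted p = 0.00269).

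Genes of the neuromuscular synapse showed the opposite difference. Of 14 tested genes of the acetylcholine receptor and synapse list, 4 were lower (Chrna1, Chrng, Lrp4 and Rapsn) and 1 higher (Dok7), and all 4 lower ones were reduced rises. The shares were 28.6% lower and 7.14% higher, against 6.94% and 7.43% of all tested genes. The 4 acetylcholine receptor and synapse calls became 2 without control GM replicate 1, spliced GM replicate 2, control DM3 replicate 2 or 3, or spliced DM3 replicate 3. The receptor subunit gene Chrna1 rose in control from 13.0, 15.1 and 16.7 FPM to 70.7, 121 and 101 FPM. The spliced line was already at 143, 182 and 98.4 FPM in GM, and reached 362, 199 and 164 FPM. Its interaction of -1.87 (SE 0.39, adjusted p = 0.00634) thus went with a higher level in the spliced cells, whose GM and DM3 libraries lay above those of control in the same medium. Lrp4, the agrin receptor, had the same order of levels, from 12.8, 15 and 9.82 to 78.0, 107 and 120 FPM in control and from 100, 149 and 91.9 to 389, 374 and 284 FPM in spliced cells (-1.29, adjusted p = 0.0115). The Chrng interaction (-2.15, adjusted p = 0.0281) was lost without control GM replicate 1 or 3, spliced GM replicate 2, control DM3 replicate 2 or 3, or spliced DM3 replicate 2 or 3, with values of -2.74 to -1.79. The Dok7 interaction (1.24) was lost without any single control or spliced GM library or control DM3 library, with values of 0.73 to 1.52.

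In the muscle energy metabolism list 6 of 21 tested genes were lower and 3 higher (28.6% and 14.3%, against 6.94% and 7.43% of all tested genes). The lower count was 3 without control DM3 replicate 2 or 3 or spliced DM3 replicate 2, and the higher count 1 without control GM replicate 3, spliced GM replicate 1 or 2, or control DM3 replicate 2 or 3. Ppargc1a encodes PGC-1alpha, the coactivator of mitochondrial biogenesis. It rose in control from 0.666, 0.920 and 0.446 FPM to 13.9, 10.5 and 11.9 FPM, and was at 0.0367 to 0.0721 FPM in spliced GM and 0.127 to 0.228 FPM in spliced DM3. The interaction of -2.82 (SE 0.16, adjusted p = 4.6e-08) had the smallest adjusted p of the named genes. Adssl1, the muscle adenylosuccinate synthase, was another lost rise (-1.11, adjusted p = 0.00418). Among the gains, Ckm, the muscle creatine kinase, was at 0.0733 FPM or less in control cells and spliced GM and at 5.05, 0.732 and 2.15 FPM in spliced DM3, beside 1.80, 5.47 and 3.30 FPM in genomic DM3. Its interaction (1.58, adjusted p = 0.03) was lost without control GM replicate 1 or 3, spliced GM replicate 1 or 2, or control DM3 replicate 2 or 3, with values of 1.12 to 2.02, and was 1.13 (adjusted p = 0.0802) without both outlying libraries. Of 58 oxidative phosphorylation genes 1 was called, and of 31 glycolysis and hypoxia genes 3 were lower, Car9 (-2.77, adjusted p = 0.0051) the most.

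**Figure D3:**
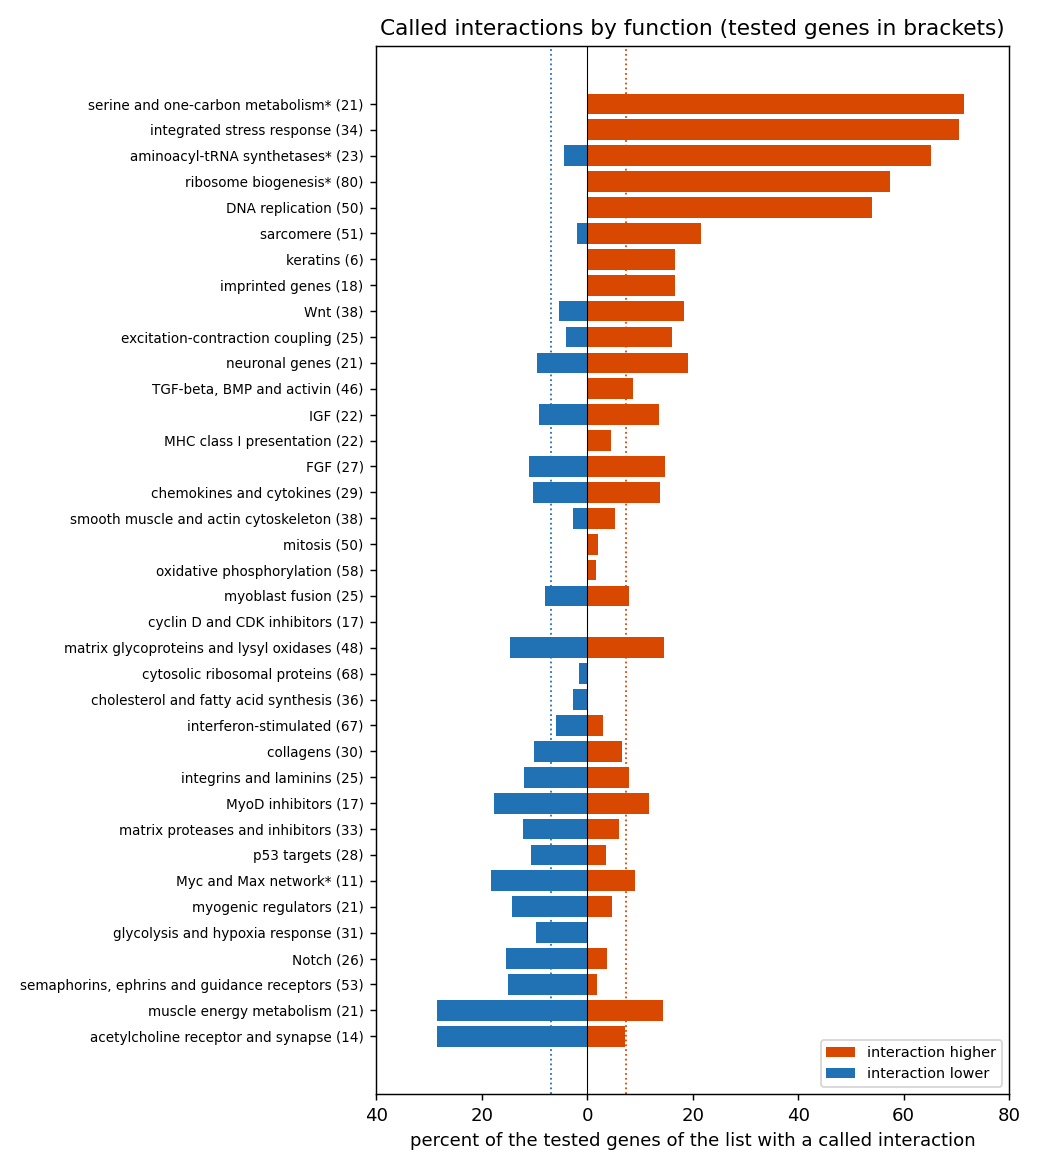
Percent of the tested genes of each functional list with a called interaction, higher to the right and lower to the left, with the number tested in brackets. Dotted lines mark the 7.43% and 6.94% of all tested genes, and an asterisk marks lists written after the largest interactions had been seen; the integrated stress response and DNA replication lists reach 70.6% and 54% higher.

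Amino acid supply genes fell in control cells and did not fall by the test in spliced cells, which started lower. The summed level of the integrated stress response list was 7457 to 9514 FPM in control GM, 4448 to 4598 FPM in control DM3, 4933 to 5013 FPM in spliced GM and 5318 to 8222 FPM in spliced DM3. The integrated stress response list holds 38 genes, of which 34 were tested, and 24 of these (70.6%) had a higher interaction and none a lower one. Of the 24, 17 were lost falls, 6 gained rises and 1 turned from a fall to a rise. In control cells 18 of the 34 fell and 3 rose, and in spliced cells none fell and 12 rose. The medians were 1.12 for the interaction, -0.67 for the control response and 0.38 for the spliced response. Without the 2 outlying libraries 19 were higher, over single left-out libraries 18 to 25, and in edgeR 24, with none lower in any of these fits.

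Atf4, the transcription factor of this response, was at 616, 679 and 626 FPM in control GM and at 377, 382 and 369 FPM in control DM3. In spliced cells it was at 411, 382 and 343 FPM in GM and 475, 385 and 515 FPM in DM3. Control cells thus started high and fell to the spliced GM level, while the spliced GM and DM3 libraries overlapped, and the interaction was 1.03 (SE 0.16, adjusted p = 0.000935). Asns, which makes asparagine, had the same order, with 425, 554 and 371 FPM falling to 175, 169 and 169 FPM in control and 148, 156 and 147 FPM against 188, 130 and 235 FPM in spliced cells (1.62, SE 0.24, adjusted p = 0.000754). Cth, which makes cysteine, gave the largest lost fall of the list (2.44, SE 0.60, adjusted p = 0.0153), a call lost without both outlying libraries (2.05, adjusted p = 0.0669). It was at 59.3, 100 and 39.2 FPM and then 29.8, 15.1 and 20.1 FPM in control, and at 9.89, 12.2 and 16.7 FPM and then 42.2, 11.7 and 30.3 FPM in spliced cells. Atf4, Asns, Trib3, Chac1, Ddit3, Psat1, Mthfd2, Bglap2 and Pi16 were named after their values had been seen.

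Of the 24 called genes of the list, 6 were gained rises. Trib3, a pseudokinase induced by ATF4, was at 53.1, 132 and 37.3 FPM in control GM and 52.3, 39.2 and 57.1 FPM in control DM3, and went from 21.5, 27.7 and 16.9 FPM to 72.7, 51.7 and 125 FPM in spliced cells (2.18, SE 0.57, adjusted p = 0.02). Chac1, which degrades glutathione, gave 1.64 (adjusted p = 0.021). Ddit3, the factor CHOP, rose in both lines, from 30.5, 66.5 and 33.2 to 141, 174 and 161 FPM in control and from 31.8, 37.1 and 25.2 to 117, 194 and 290 FPM in spliced cells, and its interaction was not called (0.63, adjusted p = 0.349). Fgf21, a secreted hormone of this response, reached 24.3, 10.2 and 8.41 FPM in spliced DM3 from 0.252 to 0.807 FPM, against 2.05 to 2.80 FPM in control DM3 (2.5, SE 0.75, adjusted p = 0.0373). Fgf21 had 34, 221 and 3 reads in control GM and 130, 104 and 152 in control DM3, so the control groups overlapped. Its call was kept only without control GM replicate 3, control DM3 replicate 1 or spliced DM3 replicate 2 or 3, among the 12 fits without 1 library, with values of 1.85 (without control GM replicate 2) to 2.97, and edgeR did not call it (4.28, adjusted p = 0.082). Without both outlying libraries it was 2.23 (adjusted p = 0.107).

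The Fgf21 promoter is shown because it holds the ATF4 element letters beside a gene of this list. It lies on the minus strand at chr7:45615491-45615740 (RefSeq, GRCm38.p6, 250 bases before the start), and capitals mark the match to TGATGNAA, searched on both strands.
Fgf21: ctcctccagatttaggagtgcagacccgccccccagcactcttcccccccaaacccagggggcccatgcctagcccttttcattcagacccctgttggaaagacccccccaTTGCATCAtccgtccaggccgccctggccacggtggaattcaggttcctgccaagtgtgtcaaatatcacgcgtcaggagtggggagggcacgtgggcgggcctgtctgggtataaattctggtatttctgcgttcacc
The match starts 139 bases before the start, on the opposite strand of the letters searched. These letters occur in 3.45% of all 32851 promoters and in 9 of the 31 promoters (29.0%) of 27 genes of the list, and none was found in the window of Trib3.

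Serine and one-carbon enzymes, which share members with this list, were higher in 15 of 21 tested genes and lower in none, with medians of 1.16 for the interaction, -1.52 in control and -0.11 in spliced cells. Psph, the last enzyme of serine synthesis, was at 95.0, 108 and 71.5 FPM in control GM and 30.3, 20.7 and 17.9 FPM in control DM3. In spliced cells it was at 53.2, 48.4 and 51.3 FPM in GM and 71.9, 46.6 and 58.4 FPM in DM3 (interaction 2.15, SE 0.26, adjusted p = 0.000199). Psat1, the enzyme before it, fell from 611, 684 and 624 to 185, 142 and 157 FPM in control and lay at 378, 352 and 368 against 471, 271 and 417 FPM in spliced cells (2.02, adjusted p = 0.000118). Control falls of about this size were thus not seen in spliced cells, whose GM level lay between the 2 control levels. Mthfd2, the mitochondrial folate enzyme, gave 2.09 (SE 0.21, adjusted p = 4.71e-05).

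Genes that serve translation had the same direction. Aminoacyl-tRNA synthetases, which load tRNAs, were higher in 15 of 23 tested genes and lower in 1 (Qars, -0.52), and 14 of the 15 were lost falls. Control cells lowered 21 of the 23. Nars, of asparagine, was at 930, 972 and 768 FPM in control GM and 450, 388 and 361 FPM in control DM3, and at 572, 475 and 469 FPM and 608, 479 and 616 FPM in spliced cells (1.32, SE 0.19, adjusted p = 0.000754). Lars, of leucine, gave 1.46 (adjusted p = 0.00076). Ribosome biogenesis genes were higher in 46 of 80 and lower in none, 32 as lost and 14 as reduced falls, with 78 falling in control and 28 in spliced cells. Rrp12, a ribosome assembly factor, fell from 63.4, 76.9 and 132 to 21.3, 16.9 and 16.5 FPM in control and was at 44.2, 39.2 and 77.3 against 46.1, 36.2 and 41.8 FPM in spliced cells (1.88, SE 0.45, adjusted p = 0.0124), a call lost without both outlying libraries (1.62, adjusted p = 0.0619). Genes of the ribosomal proteins themselves did not share this, with 0 of 68 higher and 1 lower, 32 falling in control and 51 in spliced cells. Without the 2 outlying libraries the synthetases kept 11 higher calls, serine and one-carbon genes 8 and ribosome biogenesis 17. The ribosome biogenesis count was 28 without spliced GM replicate 2 and 28 without control DM3 replicate 3.

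Myc and its antagonists differed in opposite directions. Myc, which drives ribosome and growth genes, was at 99.8, 107 and 139 FPM in control GM and 40.1, 37.0 and 37.7 FPM in control DM3. The spliced line held 95.0, 51.8 and 117 FPM in GM and 101, 64.3 and 91.3 FPM in DM3, so the groups overlapped and the fall was lost (interaction 1.57, SE 0.35, adjusted p = 0.00954). Mxd4, which competes with Myc for its partner Max, rose from 37.2, 26.4 and 18.1 to 124, 117 and 131 FPM in control and lay at 96.0, 103 and 55.3 against 106, 104 and 92.7 FPM in spliced cells (-1.90, adjusted p = 0.00692). Mxd1, of the same family, gave -1.42 (adjusted p = 0.000764). These were the 3 called genes of 11 tested in the list, and all 3 calls held without any single library. The synthetase, ribosome biogenesis, serine and Myc lists were written after the largest interactions had been seen.

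**Figure D4:**
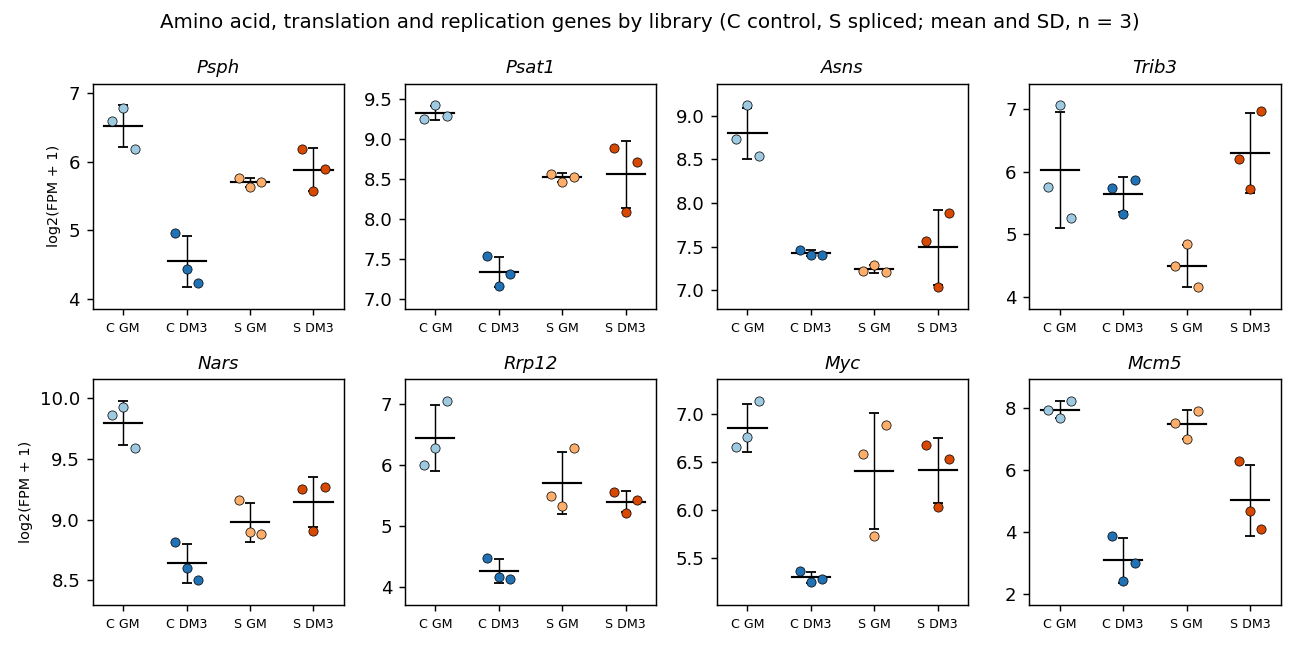
Log2(FPM + 1) of 8 amino acid, translation and replication genes in each library of control (C) and spliced (S) cells in GM and DM3, with the mean and SD of 3; the y axes do not start at 0. Control DM3 points lie below all control GM points for Psph, Psat1, Rrp12, Myc and Mcm5, while spliced DM3 and GM points overlap for Psph, Psat1, Rrp12 and Myc.

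Replication and mitosis genes fell in both lines. All 50 DNA replication genes fell in control and all 50 fell in spliced cells, and 27 (54%) had a higher interaction, all as reduced falls. The median fall was -2.93 in control and -1.53 in spliced cells, with a median interaction of 1.36. All 50 mitosis genes fell in both lines too, with medians of -2.91 and -2.30, and 1 interaction was called, that of Bub3 (0.48, adjusted p = 0.0302), a spindle checkpoint protein. That call was lost without control GM replicate 1 or 3, spliced GM replicate 2, control DM3 replicate 2 or 3, or spliced DM3 replicate 1, with values of 0.40 to 0.53 over all 12 such fits. Of the mitosis interactions 47 of 50 were positive, with a median of 0.54, beside 48 of 50 for DNA replication, and the difference between the lists was not tested. The mitosis median was -0.05 without spliced DM3 replicate 1, and without both outlying libraries it was -0.19 with 3 lower calls. No cyclin D or CDK inhibitor gene of 17 tested was called by limma, and edgeR with TMM called 1.

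Mcm3, a subunit of the replicative helicase, was at 287, 276 and 346 FPM in control GM and 26.1, 10 and 12.6 FPM in control DM3. Spliced libraries held 192, 125 and 222 FPM in GM and 88.3, 34 and 27.3 FPM in DM3. The spliced DM3 libraries lay above all control DM3 libraries and the spliced GM libraries below all control GM libraries, giving 2.27 (SE 0.52, adjusted p = 0.0102). Mcm5, of the same helicase, gave 2.40 (SE 0.63, adjusted p = 0.0203), from 244, 204 and 299 to 13.5, 4.26 and 6.89 FPM in control and from 185, 126 and 240 to 77.8, 24.4 and 15.9 FPM in spliced cells. Its call was lost without spliced GM replicate 2 (2.16) or control DM3 replicate 2 (2.06), and without both outlying libraries (1.52, adjusted p = 0.0671). The count of replication genes rested on several libraries. It was 10 without spliced GM replicate 2, 11 and 12 without control DM3 replicates 2 and 3, 17 without control GM replicate 1 or 3, and 9 higher and 1 lower without both outlying spliced libraries, up to 41 without spliced DM3 replicate 3. The mean log2(FPM + 1) of the list was 5.13 in spliced DM3 replicate 1 against 4 and 3.75 in replicates 2 and 3, and 3.19 to 3.84 in control DM3.

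The Mcm5 promoter is shown because it holds letters of E2F, the factor of replication genes. It lies on the plus strand at chr8:75109259-75109508 (RefSeq, GRCm38.p6, 250 bases before the start). Capitals mark matches to TTTGGCGC, TTTCGCGC or TTTCCCGC on either strand.
Mcm5: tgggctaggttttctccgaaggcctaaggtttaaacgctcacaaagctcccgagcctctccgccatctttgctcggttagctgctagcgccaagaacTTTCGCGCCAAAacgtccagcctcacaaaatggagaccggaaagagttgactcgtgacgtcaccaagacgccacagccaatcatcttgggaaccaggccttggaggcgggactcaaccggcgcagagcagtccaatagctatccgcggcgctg
Overlapping matches on both strands start 153 and 149 bases before the start. Such letters occur in 1.53% of all promoters and in 10 of the 47 promoters (21.3%) of 41 replication genes, and none was found in the window of Mcm3.

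**Figure D5:**
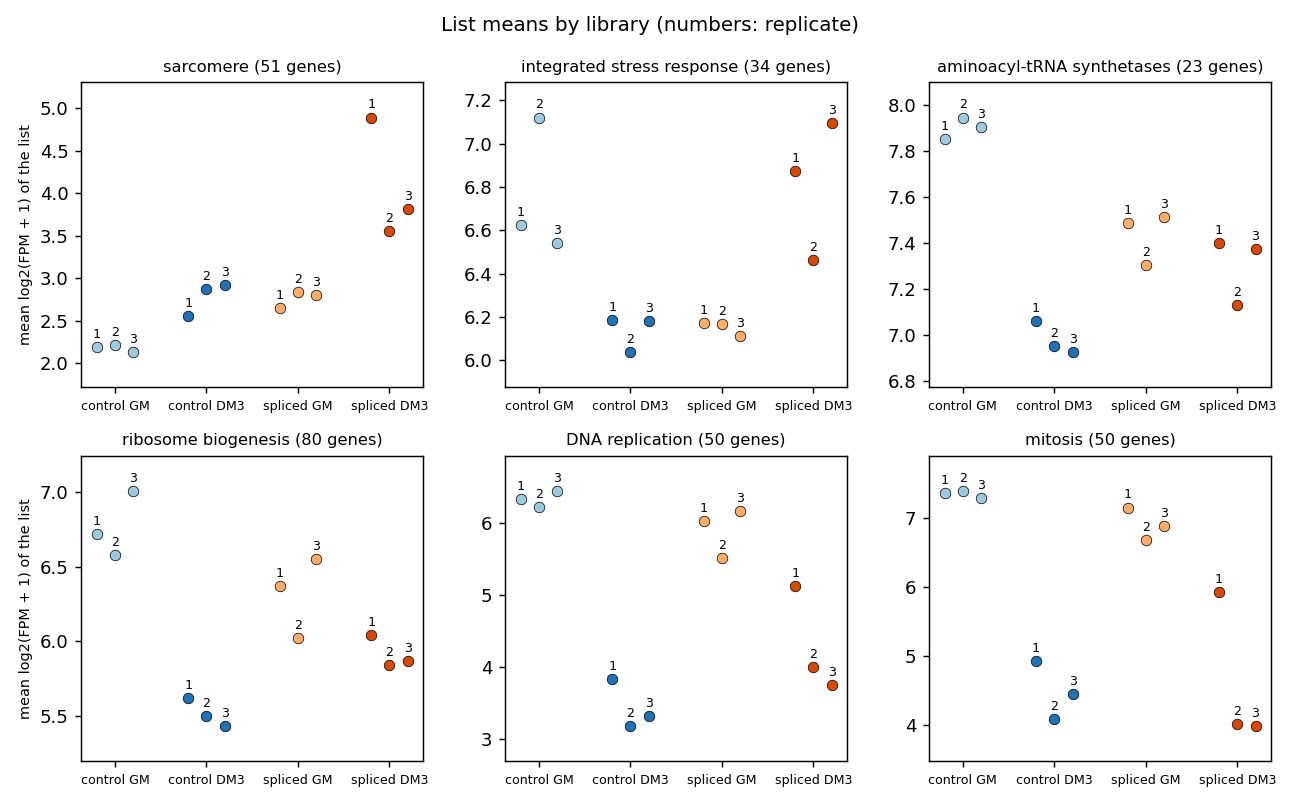
Mean log2(FPM + 1) of the tested genes of 6 lists in each of the 12 libraries, with replicate numbers beside the points. Spliced DM3 replicate 1 is the highest spliced DM3 library for sarcomere, DNA replication and mitosis genes, at 4.89, 5.13 and 5.93, while the integrated stress response is highest in replicate 3, at 7.10.

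The interferon response to differentiation was largely common to both lines. Of 67 tested interferon-stimulated genes, 66 rose in control and 65 in spliced cells, with medians of 4.02 and 3.76, and 2 interactions were higher and 4 lower (2.98% and 5.97%, near the background). The higher count was 9 without control GM replicate 3, 6 without spliced GM replicate 2, 5 without control DM3 replicate 1 and 4 without spliced DM3 replicate 1, and the lower count of interferon-stimulated genes 9 without control GM replicate 2. Limma called Ms4a4d and Epsti1 lowest. Ms4a4d rose in control to 58.0, 28.4 and 14.4 FPM from 0.102 FPM or less and in spliced cells to 0.304, 5.31 and 1.48 FPM from no read, with an interaction of -3.37 (adjusted p = 0.00316). EdgeR gave 0.90 (adjusted p = 0.806) on the reads recovered from these values. Epsti1, of less known function, rose in control from 0.0154 to 0.513 FPM to 9.24, 5.96 and 5.69 FPM and was at 0.0721 to 0.678 FPM and 0.608, 1.99 and 0.922 FPM in spliced cells (-2.10, adjusted p = 0.00083). The Epsti1 interaction was not called by edgeR. Bst2 (1.24) and Ifi27l2a (1.41) were the higher calls. In reads not scaled for depth, Bst2 was lower in spliced cells in both media. It went from 1637, 3053 and 1588 to 72000, 76113 and 72257 in control and from 164, 389 and 272 to 22619, 44895 and 36532 in spliced cells. Ifi27l2a reached 10339, 6702 and 8233 reads in control DM3 and 10493, 16737 and 13335 in spliced DM3. Bst2 kept its call only without control GM replicate 3, spliced GM replicate 2 or spliced DM3 replicate 1, and Ifi27l2a lost it without control GM replicate 1 or 2, spliced GM replicate 1, control DM3 replicate 2 or 3, or spliced DM3 replicate 2, with values of 0.90 to 1.49 and 1.13 to 1.71. Of 22 genes of MHC class I presentation, all rose in both lines and 1 interaction was called, higher, that of Psmb8. Its call was kept only without control DM3 replicate 1 or spliced DM3 replicate 1 or 3, with values of 0.84 to 1.51 over all 12 such fits. The sign was reversed in edgeR with TMM (-1.25, adjusted p = 0.566) and in DESeq2 (-1.39).

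The promoters of Ms4a4d and Epsti1 are shown as those of the lowest interferon-stimulated genes. They hold no capitals because the core of the interferon-stimulated response element is not in the 250 bases before either start. The core letters are GAAA, any 2 bases and GAAA, searched on either strand. Ms4a4d lies at chr19:11536544-11536793 and Epsti1 at chr14:77903989-77904238, both on the plus strand (RefSeq, GRCm38.p6).
Ms4a4d: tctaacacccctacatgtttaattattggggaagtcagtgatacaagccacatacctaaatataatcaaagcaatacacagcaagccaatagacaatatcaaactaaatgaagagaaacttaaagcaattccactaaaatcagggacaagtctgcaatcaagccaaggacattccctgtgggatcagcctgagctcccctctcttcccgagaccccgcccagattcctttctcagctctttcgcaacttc
Epsti1: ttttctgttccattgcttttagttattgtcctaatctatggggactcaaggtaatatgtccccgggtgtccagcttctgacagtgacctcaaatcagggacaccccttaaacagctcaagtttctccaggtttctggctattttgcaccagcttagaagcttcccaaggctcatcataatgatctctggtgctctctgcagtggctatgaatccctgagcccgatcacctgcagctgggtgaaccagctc
The core occurs in 2.98% of all promoters and in 24 of the 58 promoters (41.4%) of 49 genes of the list.

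Of 29 tested chemokines and cytokines, 4 were higher and 3 lower (13.8% and 10.3%), and the higher count was 2 without spliced GM replicate 3 or control DM3 replicate 2 or 3. Ccl5, which attracts T cells, rose in control from 5.16, 8.71 and 7.99 to 312, 273 and 200 FPM and in spliced cells from 0.808, 2.93 and 2.98 to 15.1, 18.2 and 17.0 FPM (-2.45, SE 0.44, adjusted p = 0.00284). Cxcl9, another T cell attractant, was enlarged in limma, reaching 0.631 to 1.11 FPM in control DM3 and 6.15, 11.2 and 11.8 FPM in spliced DM3 (2.46, SE 0.23, adjusted p = 2.45e-05), and not called by edgeR (1.65, adjusted p = 0.484). Ccl8 was reduced in limma (-1.66, adjusted p = 0.00445), and not called by edgeR or DESeq2. All 3 rose in both lines, the first and last less in spliced cells.

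The ligands Igf2, Igf1 and Bmp4 were among the gained rises. Igf2, the growth factor that myoblasts secrete as they differentiate, was at 0.106 to 0.188 FPM in control GM and 0.730, 0.967 and 2.28 FPM in control DM3. In spliced cells it went from 3.63, 6.71 and 3.64 to 299, 95.2 and 104 FPM, and the limma interaction was 3.76 (SE 0.64, adjusted p = 0.00204). EdgeR gave 2.07 (adjusted p = 0.247). Igf1 gave 3.04 (adjusted p = 0.0128; edgeR 2.41, adjusted p = 0.185), reaching 42.3, 42.7 and 71.5 FPM in spliced DM3, while Igfbp6, an IGF-binding protein, turned from a rise to a fall (-1.60, adjusted p = 0.00102). The IGF list had 3 higher and 2 lower of 22 (13.6% and 9.09%, against 7.43% and 6.94% of all tested genes). Of the imprinted genes, 3 of 18 were higher (16.7%) and none lower, Igf2 and Zim1 (2.52, adjusted p = 0.00505) the most.

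In the Wnt list 7 of 38 tested genes were higher and 2 lower (18.4% and 5.26%, against 7.43% and 6.94% of all tested genes). Axin2, a direct target and feedback inhibitor of Wnt signalling, was at 0.672 to 2.84 FPM in all control libraries and 0.404 to 1.06 FPM in spliced GM, and rose to 6.51, 5.92 and 10.6 FPM in spliced DM3 (2.72, SE 0.33, adjusted p = 0.000164; edgeR 4.33, adjusted p = 0.00218). Sfrp4, a secreted Wnt antagonist, gave 1.70 (adjusted p = 0.013). Bmp4 was at 0.615 to 2.11 FPM in control cells and went from 42.1, 22.5 and 16.1 to 87.9, 106 and 134 FPM in spliced cells (1.63, adjusted p = 0.00813; edgeR 1.31, adjusted p = 0.0825). The TGF-beta, BMP and activin list was near the background, with 4 of 46 higher (8.70% against 7.43%) and none lower, and 1 higher without control GM replicate 1 or control DM3 replicate 3 and 2 without control GM replicate 3, spliced GM replicate 2, control DM3 replicate 2 or spliced DM3 replicate 1. In the FGF list 4 of 27 were higher and 3 lower (14.8% and 11.1%), with 2 higher without spliced GM replicate 2 or control DM3 replicate 2. Spry1, a feedback inhibitor that had at most 0.0789 FPM in control, went from 5.15, 11.2 and 5.14 to 37.5, 55.5 and 71.3 FPM in spliced cells (2.78, adjusted p = 0.00101; edgeR 1.15, adjusted p = 0.894).

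Of 26 Notch genes, 4 were lower and 1 higher (15.4% and 3.85%, against 6.94% and 7.43% of all tested genes), with 7 lower without control DM3 replicate 1. Notch3 rose in control from 43.0, 67.7 and 23.5 to 137, 176 and 219 FPM against 107, 240 and 127 and then 125, 134 and 131 FPM in spliced cells (-2.25, adjusted p = 0.0149), a call lost without both outlying libraries (-1.88, adjusted p = 0.0652). Jag2, a Notch ligand, was a gained fall (-1.59, adjusted p = 0.0133). Of 53 semaphorin, ephrin and guidance genes, 8 were lower and 1 higher (15.1% lower against 6.94%), and 6 of the 8 were lost rises. Unc5c, a netrin receptor, rose in control from 17.7, 20.4 and 13.1 to 57.1, 57.4 and 55.7 FPM and was at 6.92, 6.23 and 3.23 and then 3.55, 2.77 and 4.36 FPM in spliced cells (-2.17, SE 0.51, adjusted p = 0.0125). Without the 2 outlying libraries the list had 3 lower and 1 higher, and without control DM3 replicate 2 it had 5 lower.

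In the list headed MyoD inhibitors, 2 of 17 tested genes were higher and 3 lower (11.8% and 17.6%, against 7.43% and 6.94% of all tested genes). Snai1, a repressor that competes at E-boxes, rose in control from 15.2, 13.1 and 17.1 to 20.2, 22.4 and 23 FPM and fell in spliced cells from 19, 19.2 and 27.7 to 14.3, 13.7 and 10 FPM (-1.25, SE 0.23, adjusted p = 0.00321). Hes6, a member of the list that is not established as a MyoD inhibitor, was a lost rise (-1.54, adjusted p = 0.0075). Zeb2 was an enlarged rise (0.57, adjusted p = 0.0204), not called without both outlying libraries (0.60, adjusted p = 0.0512). The fall of Id2, which sequesters E proteins, was lost (2.35, adjusted p = 0.0377) and kept its call only without control GM replicate 2, spliced GM replicate 1, control DM3 replicate 1 or spliced DM3 replicate 3, with values of 1.97 to 2.80, and was 1.83 (adjusted p = 0.171) without both outlying libraries. The p53 list had 1 higher and 3 lower of 28 (3.57% and 10.7%, against the same 7.43% and 6.94%). Trp53 itself was a lost fall (0.74, adjusted p = 0.014, and 0.62, adjusted p = 0.068, without both outlying libraries) and Sesn1 a lost rise (-1.54, adjusted p = 0.00796).

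Of 48 matrix glycoproteins and lysyl oxidases 7 were higher and 7 lower (14.6% each), and the lower count was 3 without control GM replicate 1 or control DM3 replicate 2 and 4 without spliced GM replicate 1 or 3 or spliced DM3 replicate 1. Nearer to the 7.43% and 6.94% of all tested genes were collagens (2 higher and 3 lower of 30, 6.67% and 10%), proteases and inhibitors (2 and 4 of 33, 6.06% and 12.1%) and integrins and laminins (2 and 3 of 25, 8% and 12%). Fbln5, which organises elastic fibres, was at 17.0 to 28.0 FPM in all control libraries and went from 35.4, 16.6 and 21.6 to 95.7, 60.8 and 106 FPM in spliced cells (2.00, SE 0.35, adjusted p = 0.00224). Col8a1, of basement membranes, fell in control from 176, 198 and 154 to 111, 107 and 92.0 FPM and rose in spliced cells from 266, 261 and 185 to 507, 538 and 694 FPM (2.05, SE 0.23, adjusted p = 0.00011). Vcan, versican, a large proteoglycan, did the reverse, from 135, 173 and 146 to 464, 337 and 335 FPM in control and from 227, 232 and 276 to 198, 91.2 and 189 FPM in spliced cells (-2, adjusted p = 0.00154).

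Several matrix rises of control cells were lost or reduced. Mmp2, gelatinase A, rose in control from 21.5, 21.0 and 24.7 to 68.9, 128 and 162 FPM and was at 27.7, 34.6 and 31.7 and then 23.2, 31.0 and 37.1 FPM in spliced cells (-2.34, SE 0.34, adjusted p = 0.000757). Col18a1, whose fragment is endostatin, gave -2.31 (adjusted p = 0.0013), Adamts4, an aggrecanase, gave -2.46 (adjusted p = 0.00672), and Efemp1, a fibulin, gave -2.83 (adjusted p = 0.00601). Itgb3, an integrin subunit, turned from a rise (108, 118 and 109 to 137, 177 and 182 FPM) to a fall (154, 166 and 158 to 47.0, 67.9 and 61.7 FPM), with -1.99 (SE 0.23, adjusted p = 0.000118). Smooth muscle and actin genes had 2 higher and 1 lower of 38, and cholesterol and fatty acid genes 0 higher and 1 lower of 36.

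Among genes chosen for their size of interaction alone, Hgf stood out by level. Hepatocyte growth factor, which activates satellite cells and restrains differentiation, rose in control from 20.1, 20.1 and 12 to 86.6, 95.0 and 119 FPM. Levels in spliced cells were 11.8, 14.4 and 9.74 FPM in GM and fell to 8.92, 6.01 and 5.59 FPM in DM3. No DM3 library of either line overlapped its GM libraries, in opposite directions, and the interaction was -3.22 (SE 0.37, adjusted p = 0.000118; edgeR -3.28, adjusted p = 0.000378). Ifitm1, an interferon-induced membrane protein, turned likewise, from 18.1, 16.9 and 12.4 to 53.1, 78.5 and 97.9 FPM in control and from 24.7, 33.0 and 16.7 to 8.11, 16.3 and 13.4 FPM in spliced cells (-3.10, SE 0.43, adjusted p = 0.000524). Fmo1, a drug-metabolising oxygenase, turned at low control levels (-2.03, adjusted p = 0.00076). Ptx3, a secreted pattern-recognition protein, turned from a fall in control to a rise in spliced cells (2.53, SE 0.53, adjusted p = 0.00653). Its GM level was 2.01 to 4.62 FPM in control and 20.2 to 85.4 FPM in spliced cells. In reads not scaled for depth, control went from 190, 261 and 131 in GM to 47, 20 and 66 in DM3. Spliced cells went from 3385, 1104 and 1982 to 5566, 4013 and 7789 reads.

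The gained falls were led by Acsbg1, a long-chain acyl-CoA synthetase, at 44.0, 57.3 and 78.9 FPM in control GM and 72.9, 75.9 and 57.0 FPM in control DM3. It fell in spliced cells from 17.9, 20.7 and 25.8 to 2.68, 1.90 and 2.84 FPM (-2.91, SE 0.30, adjusted p = 4.71e-05). Itgb7, a leukocyte integrin subunit, gave -2.17 (adjusted p = 0.0224), a call lost without control GM replicate 1 (-1.93) or control DM3 replicate 2 (-2.16) or 3 (-2.14), and without both outlying libraries (-2.29, adjusted p = 0.0529). Glipr1 gave -2.12 (adjusted p = 0.00926).

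The lost rises were led by Phex, a peptidase of bone and teeth, from 38.6, 42.5 and 19.1 to 180, 221 and 247 FPM in control against 7.57, 11.1 and 5.97 and then 5.43, 7.02 and 5.82 FPM in spliced cells (-3.07, SE 0.39, adjusted p = 0.000218). Phex is also an osteoblast marker. Of the 10 osteoblast markers 3 were tested and 2 were lower (Phex and Bglap2), and the summed level of the list was 114 to 124 FPM in control GM, 255 to 358 FPM in control DM3, 93.2 to 108 FPM in spliced GM and 77.5 to 102 FPM in spliced DM3. Ibsp and Sost had no read in any of the 4 groups, and the part of bone-like cells in the result was not tested. Rcan2, an inhibitor of calcineurin, rose in control from 1.06, 0.726 and 1.38 to 7.18, 13.2 and 13.8 FPM and was at 0.866 to 1.01 FPM and 0.475 to 0.723 FPM in spliced cells (-2.81, SE 0.31, adjusted p = 0.00011).

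The lost falls were led by Nefm, a neurofilament subunit, which fell in control from 136, 106 and 242 to 2.90, 4.14 and 4.46 FPM. The spliced line held 0.0733 to 0.162 FPM in GM and 0, 0.0349 and 0 FPM in DM3, and its interaction of 4.86 (SE 0.35, adjusted p = 1.35e-06) was not called by edgeR (2.44, adjusted p = 0.503). Nefl, its partner, was similar (limma 2.60, edgeR 0.74). Of 21 tested neuronal genes 4 were higher and 2 lower, and of 6 keratins 1 was higher and none lower. Tfrc, the transferrin receptor that imports iron into growing cells, was expressed throughout. It fell in control from 338, 302 and 467 to 70.4, 37.7 and 27.7 FPM and was at 321, 231 and 258 and then 319, 164 and 108 FPM in spliced cells (2.5, SE 0.50, adjusted p = 0.00496; edgeR 2.63, adjusted p = 0.00643).

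Markers of other cell types gave few calls. Of the epithelial markers, 1 of 3 tested was higher (Krt14, 2.28, adjusted p = 0.0317), with a summed list level of 25.3 to 67.3 FPM in control GM, 1.26 to 2.04 FPM in control DM3, 61.6 to 137 FPM in spliced GM and 9.39 to 35.6 FPM in spliced DM3. The Krt14 call was lost without control GM replicate 1 or 3, spliced GM replicate 2, control DM3 replicate 2 or 3, or spliced DM3 replicate 1, with values of 1.69 to 2.71, and the value without both outlying libraries was 1.31 (adjusted p = 0.148). Of the fibroblast markers 1 of 8 was lower (Pi16, -1.66), while their summed level was 4206 to 6979 FPM in control GM, 7196 to 8484 FPM in control DM3, 8378 to 15459 FPM in spliced GM and 13762 to 14589 FPM in spliced DM3. The part of these markers in the matrix and other results was not tested. Of adipocyte, chondrocyte, macrophage and endothelial markers limma called none of 6, 1, 4 and 4 tested. The macrophage markers Adgre1, C1qa and C1qc had no read in any of the 4 groups.

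The spliced response was also set against that of cells with genomic MUNC, a comparison that shares the spliced libraries and uses no control library. It was called for 1460 genes (10.5%), 743 higher (5.36%) and 717 lower (5.17%) in spliced cells. In the integrated stress response list 21 of 34 were higher and none lower, in the serine and one-carbon list 12 of 21 and none, and in ribosome biogenesis 14 of 80 and 1. In the DNA replication list 9 of 50 were higher, and in the sarcomere list 3 were higher and 5 lower of 51. Psat1 (1.92, SE 0.23, adjusted p = 7.17e-05), Cth (2.89, adjusted p = 0.006) and Axin2 (2.27, adjusted p = 0.00033) differed from the genomic response, while Acta1 (1.91, adjusted p = 0.161), Myh3 (0.79, adjusted p = 0.512) and Ryr1 (-0.11, adjusted p = 0.931) did not pass. Axin2 had at most 1 read in any genomic library, so its value sets the spliced rise against a line with almost no reads of the gene. Of the interferon-stimulated genes, 61 of 67 were higher against the genomic response, although their interaction with control was near the background.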

How the data were processed

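Polyadenylated RNA of 18 C2C12 libraries was sequenced on an Illumina instrument, per the labels' protocols. The submitters' processing notes name STAR, HTSeq and DESeq2 and the build mm10, without versions or roles. The authors deposited a table of normalized signal in FPM, which a label calls FPKM, for 35275 Ensembl genes. In each library the values were whole multiples of 1 step shared by all genes, to within 0.0349 of a read, so whole reads were recovered for 100% of values and no division by gene length is present. The authors' 5 tables of DESeq2 comparisons were not used here.

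Groups were taken from sample titles, because a source label of myoblast or myotube disagreed with them in some samples. Gene symbols matched 34490 identifiers (97.8%). The values, as log2(FPM + 1), entered 1 limma fit (version 3.58.1, R 4.3.3) of all 18 libraries, with eBayes and a trend and 12 residual degrees of freedom. This scale understates changes of genes near 0. Alternatives used other pseudocounts (0.1 and 0.5 FPM), filters (none and 2 FPM) and scalings, edgeR 4.0.16 and DESeq2 1.42.0 on recovered reads, a replicate block, and fits without 1 library. The test was tried on simulated data. Intervals and limits on counts cover counting error only, because PCR copies were not marked by identifiers. Strand use in counting is not given in the sources used here, so overlapping genes and near-identical copies may share reads.

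The members, lists, rules and tests were chosen with earlier results of these data known. Genes named were the 3 with the largest interaction in each of 6 kinds of response (highest group mean at least 5 FPM, same sign in edgeR), at most 2 called genes in each direction of each list, and Myod1, Myog and Myh3; others are said to be chosen after their values were seen. The promoter sequences and starts are from RefSeq on GRCm38.p6.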

Additional observations from a re-analysis of the deposited data

Results flagged for a closer look

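The DM3 minus GM response differed between spliced and control cells for 1993 genes, and between spliced and genomic MUNC cells for 1460 genes, each by limma's test of the difference itself. Among the genes with the largest interactions against control, 6 also responded differently from the genomic line. The spliced response exceeded the genomic one by 1.88 for Mybph (adjusted p = 0.0153), 2.31 for Igf2 (adjusted p = 0.031), 2.06 for Nefm (adjusted p = 0.00137), 2.89 for Cth (adjusted p = 0.006) and 1.22 for Col8a1 (adjusted p = 0.00269) on the log2 scale. For Rcan2 it was lower, at -1.10 (adjusted p = 0.0331). The interaction of Cth against control was not called without spliced DM3 replicate 1 and spliced GM replicate 2 (2.05, adjusted p = 0.0669). The Nefm value compares a line near 0 FPM with one that expresses it, and the comparison shares the spliced libraries with the interaction against control.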

How the results depend on the processing

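Of 108 named genes with a called interaction, 79 were called with the same sign in all 12 fits without 1 of the compared libraries. Of these, 48 were also called under every other setting that tested them, including the fit without both outlying spliced libraries. The interaction count was 1214 when the fit held no other groups, 763 at an absolute log2 value of at least 1, and 1030 without both outlying spliced libraries, which was chosen after seeing the data. Without 1 library it ran from 1063 (control DM3 replicate 3) to 2434, with 1093 without control DM3 replicate 2 and 1203 without spliced GM replicate 2. The unadjusted p was under 0.05 for 4271 genes.

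At an absolute log2 value of at least 1, the control response gave 2592 genes, the spliced response 1253, the response against genomic 686, and gained, lost, turned, reduced and enlarged classes 124, 404, 2, 106 and 7. With only the compared groups, the spliced response gave 3046, gained 166, turned 29 and reduced 165. Without both outlying libraries lost, reduced and enlarged responses were 412, 169 and 87. With no filter on low values reduced and enlarged were 263 and 17. EdgeR gave 166 gained responses with TMM and 161 with DESeq2 size factors. Without 1 library, gained ran from 192 to 303, lost from 567 to 1346, turned from 55 to 90, reduced from 214 to 643 and enlarged from 11 to 61, the control response from 7087 to 7879, the spliced response from 3297 to 5378 and that against genomic from 930 to 1597.

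Signs reversed in edgeR with TMM, edgeR with DESeq2 size factors and DESeq2 in turn, for Ms4a4d (0.90, 0.85 and 0.13), Psmb8 (-1.25, -1.29 and -1.39), Itga8 (-3.75, -3.75 and -3.29) and Myod1 (-0.52, -0.56 and -0.60), and for Myog in DESeq2 (-0.071); the cause was not tested.

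Same-numbered replicates deviated together in 15 of 18 pairs (correlation over 0.1, lowest 2.8e-06, median 0.22), and a library correlated best with its own number in 28 of 36 comparisons, a hint from the data that numbers share something; since 3 pairs did not pass 0.1 and no label ties a number to a shared culture or day, the numbers were not taken as pairs. With the replicate block the interaction count was 3868, that against genomic 2716, and gained, lost, turned, reduced and enlarged 499, 1767, 166, 1333 and 65.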
